A study of Mus musculus with 2 samples.

Results

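The transcripts described here are those of 8 mouse genes that handle actin: the thymosins Tmsb10 and Tmsb4x, the actins Actb and Actg1, the actin-binding genes Pfn1 and Cfl1, the coronin gene Coro1a and the Arp2/3 subunit gene Arpc1b, out of 19960 genes listed. Tmsb10 was selected on its measured level, lower in the Postn-DTR library, so its own values are a description and support nothing; the other 7 genes were taken to ask whether that difference was shared by genes of the same machinery. All 8 were found by symbol or gene identifier.

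The cells came from the omentum, an abdominal fat depot with leukocyte clusters called milky spots, 5 days after diphtheria toxin (DT) was injected into the peritoneal cavity. WT mice and Postn-DTR mice both received DT. The Postn-DTR allele is a diphtheria toxin receptor knocked into 1 copy of Postn, so that DT removes Postn-expressing cells, among them Aldh1a2+ fibroblastic reticular cells. The series describes the cells as omental leukocytes, the mice of each genotype were pooled, and single-cell RNA-seq was made from 1 library per genotype; the allele was made in C57BL/6 zygotes, and age was not given in the sources used here. The study named Tmsb10 among the genes higher in WT T and B2 cells, which is the question these values address.

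With 1 library per group no difference between genotypes could be tested, and genotype, pool and library cannot be told apart. Intervals are exact 95% intervals and cover counting error only. A level is the mean over cells of the UMIs (unique molecules) of a gene per 10000 UMIs of the cell. A log2 ratio is the Postn-DTR level over the WT level, negative where Postn-DTR was lower, and a ratio of -0.5 or less, or of 0.5 or more (1.41-fold), was counted as past the fold.

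After filtering there were 8654 WT and 5727 Postn-DTR cells, with 80152192 and 81011215 UMIs and medians of 5635 and 8472 UMIs per cell; 65 cell barcodes occurred in both. Postn, the targeted gene, had 84 UMIs in 34 WT cells and 20 UMIs in 8 Postn-DTR cells. Within the stromal-like cells, 9 of 41 WT and 4 of 18 Postn-DTR cells had a Postn UMI, with levels of 0.665 and 0.170. An Aldh1a2 UMI was found in 38 of these WT cells and 10 of these Postn-DTR cells, with levels of 3.48 and 0.680. Clusters were named from markers into 23 classes, of which 16 had at least 30 cells in both libraries and were compared; 3 clusters stayed unnamed. The cluster of CD4 T-like cells that were not naive held the regulatory T cell markers Foxp3, Il2ra and Ctla4, so regulatory and other CD4 T cells are together in it.

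Actin is a protein that polymerises from single units into filaments, which give a leukocyte its cortex, its shape and its means of crawling. Beta-thymosins bind single actin units and hold them in reserve. Profilin passes units to growing filament ends, cofilin cuts and dismantles old filaments, the Arp2/3 complex starts branches, and coronin 1A, a protein of blood cells, works at the filament with Arp2/3 and cofilin.

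Tmsb10 and Tmsb4x encode peptides of the same length from different chromosomes, and their coding sequences are shown because the comparison turns on how far 2 close relatives went apart. In GENCODE M21 (GRCm38) Tmsb10 lies at chr6:72957347-72958748 and Tmsb4x at chrX:167207093-167209315, both on the minus strand. The coding sequences, 5′ to 3′ on the coding strand with the stop codon, have 135 bases each, and 95 of them are identical (70.4%). Capitals mark the 40 bases that differ.
Tmsb10: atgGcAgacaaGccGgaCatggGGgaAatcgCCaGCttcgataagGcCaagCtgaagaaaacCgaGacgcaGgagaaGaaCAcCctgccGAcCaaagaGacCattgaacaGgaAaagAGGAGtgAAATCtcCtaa
Tmsb4x: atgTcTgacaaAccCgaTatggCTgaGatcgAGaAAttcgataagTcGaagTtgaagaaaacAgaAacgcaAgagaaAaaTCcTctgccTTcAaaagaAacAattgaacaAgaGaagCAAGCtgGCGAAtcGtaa

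The differing bases are spread over both sequences, and from the 5′ end to the stop codon no run of 61 bases of Tmsb4x occurred in another gene. Tmsb10 shared such a run with 2 other genes, 1 of them listed in the files, Gm9844. That copy held 1247 UMIs against 370061 of Tmsb10 in WT and 359 against 84059 in Postn-DTR, and adding its UMIs to those of Tmsb10 moved no class's log2 ratio by more than 0.0064. The coding sequences of Actb and Actg1 are 88.7% identical, and these genes share runs of 61 bases. Reads within the coding sequence are thus less surely told apart for the actins than for the thymosins. Bases after the stop codon were not searched, and labels and methods differ on a 5′ or 3′ kit. For reads from the 3′ end these comparisons of sequence cannot decide. Actb lies at chr5:142903115-142906754, Actg1 at chr11:120345690-120348542, Pfn1 at chr11:70651850-70654644 and Coro1a at chr7:126699773-126707787, all on the minus strand. Cfl1 lies at chr19:5490455-5495201 and Arpc1b at chr5:145114215-145130705 on the plus strand.

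Tmsb10 was highest in LTi-like cells, followed by T, NKT-like and NK-like classes, with cDC1-like cells (88.4 in WT) among them. It was lowest in plasma cells, neutrophils and macrophages. ILC2-like cells, at 39.7 in WT, stood below monocyte-like cells (63.4). In WT its level was 161.8 in LTi-like cells, 113.3 in naive CD4 T-like cells, 111.0 in NKT-like cells and 99.3 in CD8 T-like cells. It was 53.5 in B2 B-like cells and 36.3 in B1 B-like cells. The lowest WT levels were 11.3 in neutrophil-like, 10.8 in macrophage-like and 5.89 in plasma-like cells. The highest and lowest levels were 27.5-fold apart in WT, against 50.5-fold in Postn-DTR, and LTi-like and plasma-like cells stood at the ends in both. Of the 22 pairs of neighbours in the order of WT levels, the counting intervals of 7 overlapped, among them naive CD4 T-like with NKT-like, NK-like with cycling T-like, and neutrophil-like with macrophage-like cells.

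**Figure D1:**
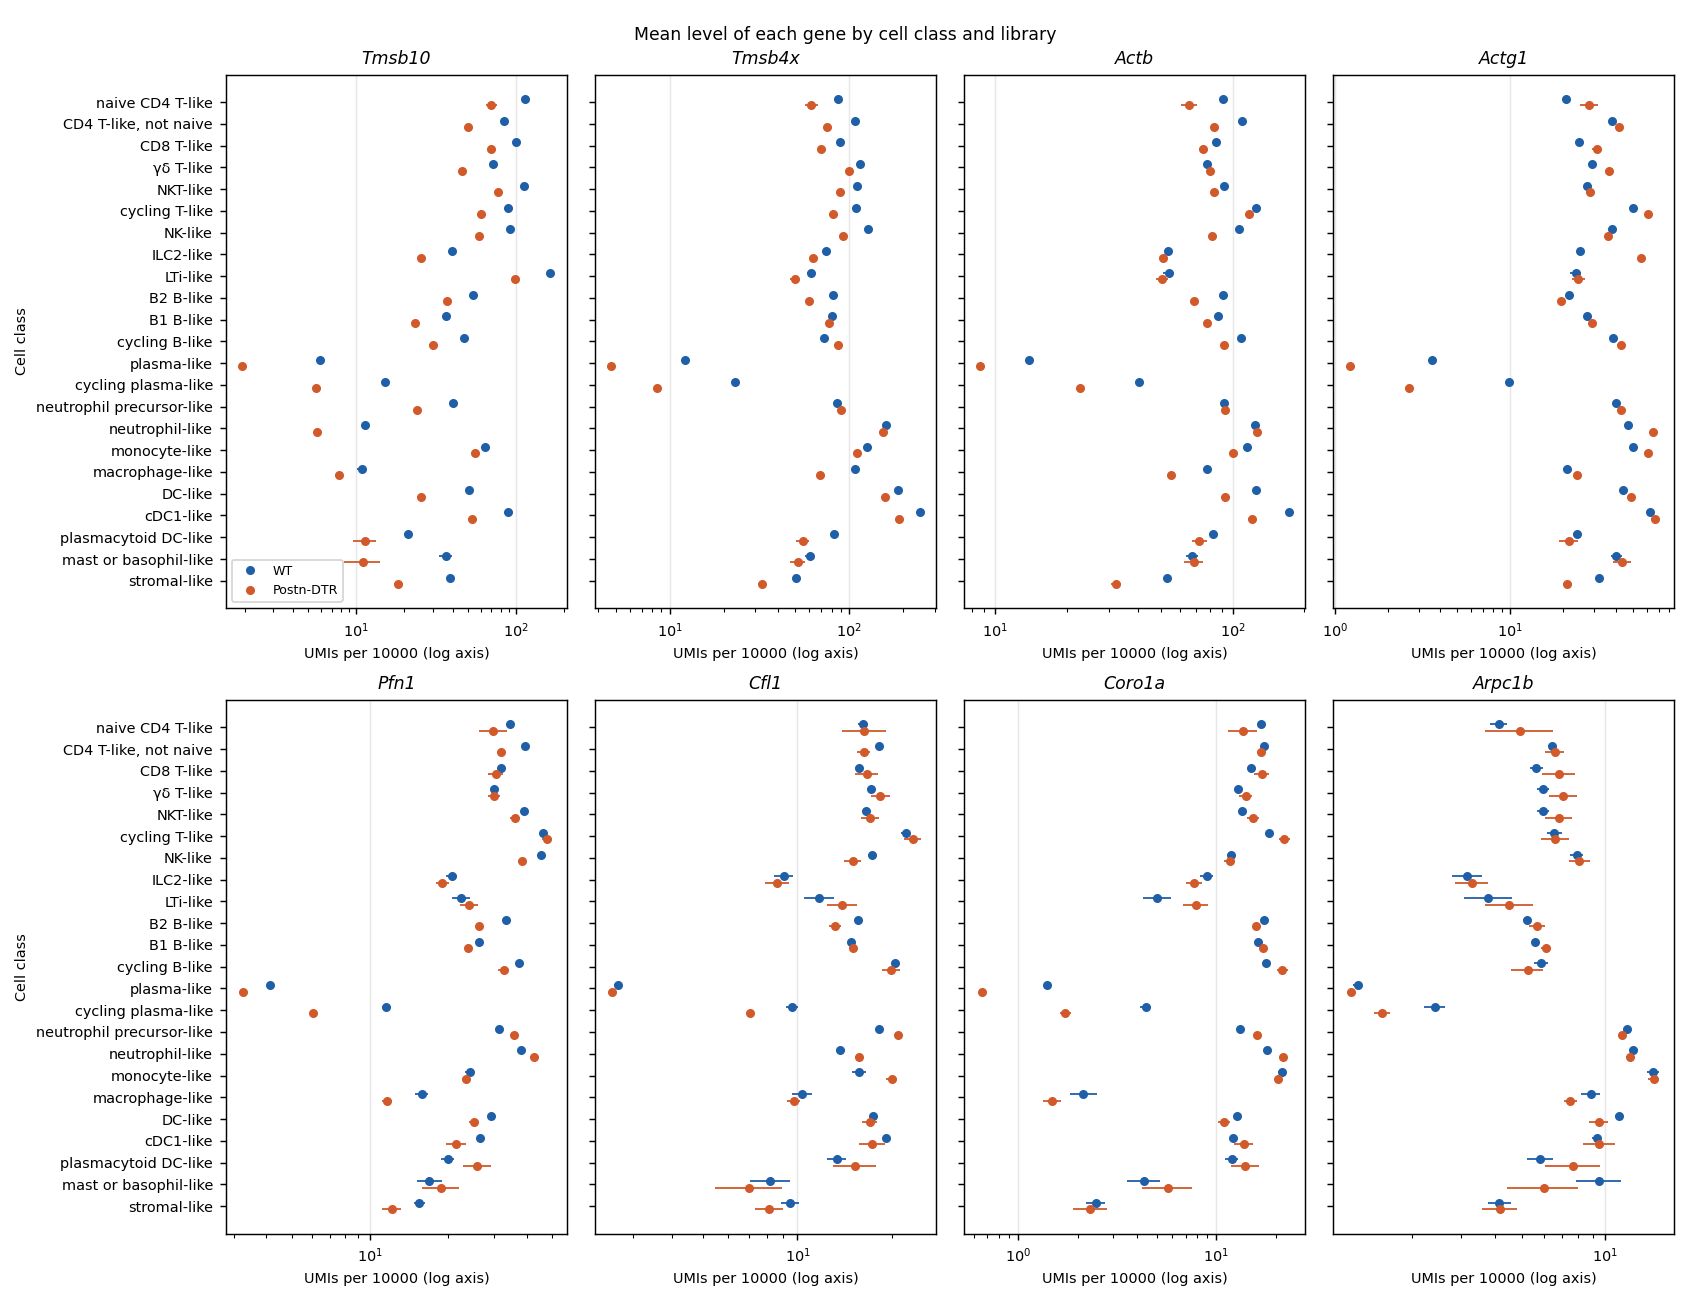
Mean level of each of the 8 genes (x axis, UMIs per 10000, log scale) in 23 cell classes (y axis), WT in blue and Postn-DTR in orange, with lines for the 95% counting interval. Tmsb10 lay to the left in Postn-DTR in every class, while the intervals of Cfl1 and Arpc1b overlapped between libraries in most.

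The other members had other orders. Tmsb4x was highest in cDC1-like cells (249.4 in WT), and so was Actb in WT (172.3), whereas Arpc1b was highest in monocyte-like cells (14.9 in WT). Coro1a was 21.4 in WT monocyte-like and 17.5 in WT CD4 T-like cells that were not naive but 2.14 in WT macrophage-like cells. Plasma-like cells had the lowest WT level of all 8 genes. Together the 8 genes took 0.467% of the UMIs of WT plasma-like cells and 4.80% of those of WT DC-like cells.

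In Postn-DTR, Tmsb10 was lower in 16 of 16 classes and past the fold in 14 (of all genes tested over the 16 classes, 10.6% of values were at -0.5 or less and 9.63% at 0.5 or more). Its median log2 ratio was -0.65. Since Tmsb10 was picked for this contrast, nothing is read from the share. In CD4 T-like cells that were not naive the level was 83.97 in WT against 49.7 in Postn-DTR (log2 ratio -0.76, with -0.70 to -0.62 on summed UMIs). In B2 B-like cells it was 53.5 in WT against 36.9 in Postn-DTR (log2 ratio -0.54, with -0.57 to -0.48 on summed UMIs). The differences in these 2 classes were of the size found in most lymphoid classes: the ratio was -0.51 in CD8 T-like, -0.54 in NKT-like, -0.63 in NK-like, -0.64 in γδ T-like, -0.65 in both ILC2-like and B1 B-like, and -0.72 in LTi-like cells.

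In the other classes the ratio ran from -0.20 to -1.602. DC-like cells went from 50.8 in WT to 25.3 in Postn-DTR (-1.01), neutrophil-like cells from 11.3 to 5.66 (-1.001), and neutrophil precursor-like cells from 40.4 to 23.96 (-0.75). On summed UMIs the intervals were, in this order, -1.12 to -0.98, -0.94 to -0.79 and -0.59 to -0.53. Plasma-like cells had 5.89 in WT and 1.94 in Postn-DTR (-1.602), and cycling plasma-like cells 15.02 and 5.57 (-1.43). At the other end, monocyte-like cells had 63.4 and 55.1 (-0.20), and macrophage-like cells 10.8 and 7.81 (-0.47), both short of the fold. In the 7 classes too small to compare, the level was also lower in Postn-DTR in 7 of 7, for example 113.3 against 69.8 in naive CD4 T-like cells, which numbered 23 in Postn-DTR.

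**Figure D2:**
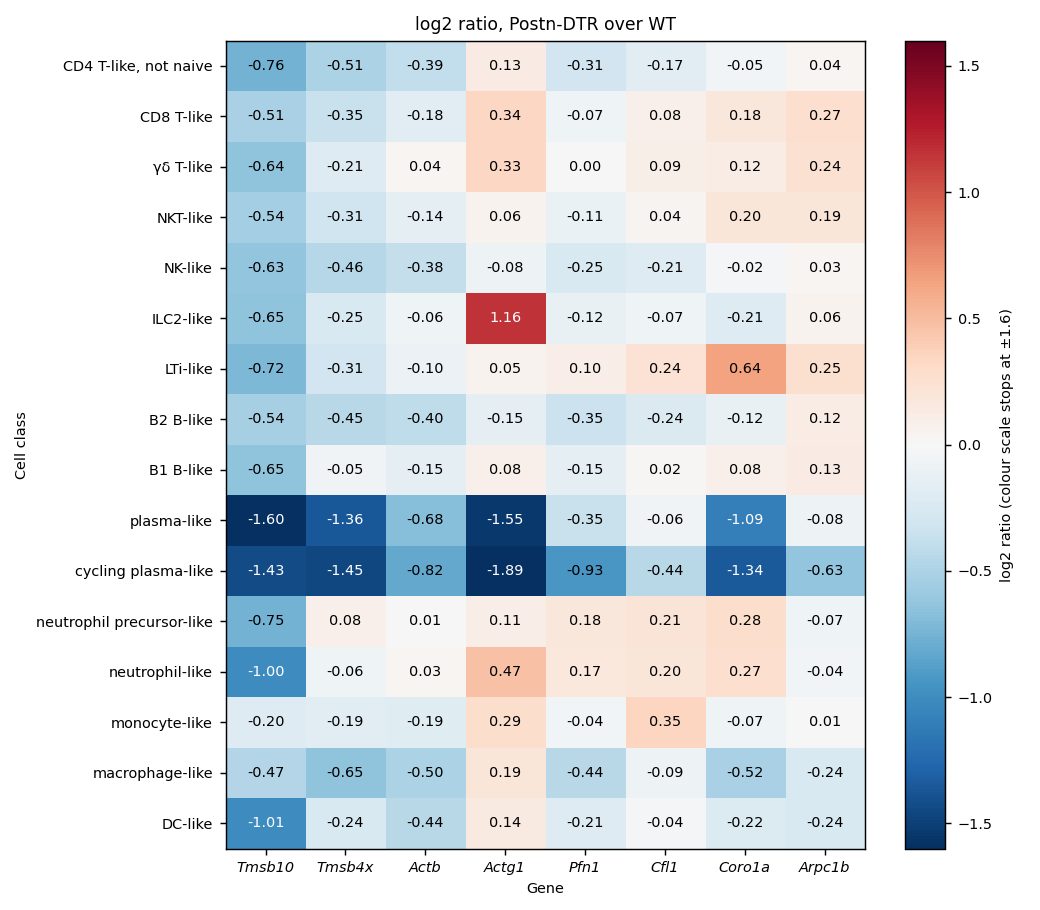
log2 ratio, Postn-DTR over WT, of the 8 genes (columns) in the 16 compared classes (rows), blue where Postn-DTR was lower and red where it was higher. The Tmsb10 column is blue throughout, from -0.20 in monocyte-like to -1.602 in plasma-like cells, and the Actg1 column holds the highest value, 1.16 in ILC2-like cells.

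The median log2 ratio over all genes tested was 0.17 in plasma-like and in neutrophil-like cells, -0.11 in macrophage-like cells and between -0.07 and 0.03 in the other classes. Set among all genes tested in the same class, Tmsb10, which was picked for this contrast, lay far down in most classes. The share of tested genes at or below its log2 ratio was 0.785% in CD4 T-like cells that were not naive, 1.16% in neutrophil-like and 1.85% in DC-like cells, but 20.2% in macrophage-like and 34.9% in monocyte-like cells. The share of all genes at -0.5 or less in each class was 5.96% in CD4 T-like cells that were not naive, 9.25% in CD8 T-like, 10.6% in γδ T-like, 6.27% in NKT-like and 7.91% in NK-like cells. It was 12.3% in ILC2-like, 10.2% in LTi-like, 8.1% in B2 B-like and 7.71% in B1 B-like cells. Plasma-like cells had 15.9% and cycling plasma-like cells 14.9%. In myeloid classes it was 6.77% in neutrophil precursor-like, 7.3% in neutrophil-like, 17.3% in monocyte-like, 18.1% in macrophage-like and 13.7% in DC-like cells.

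**Figure D3:**
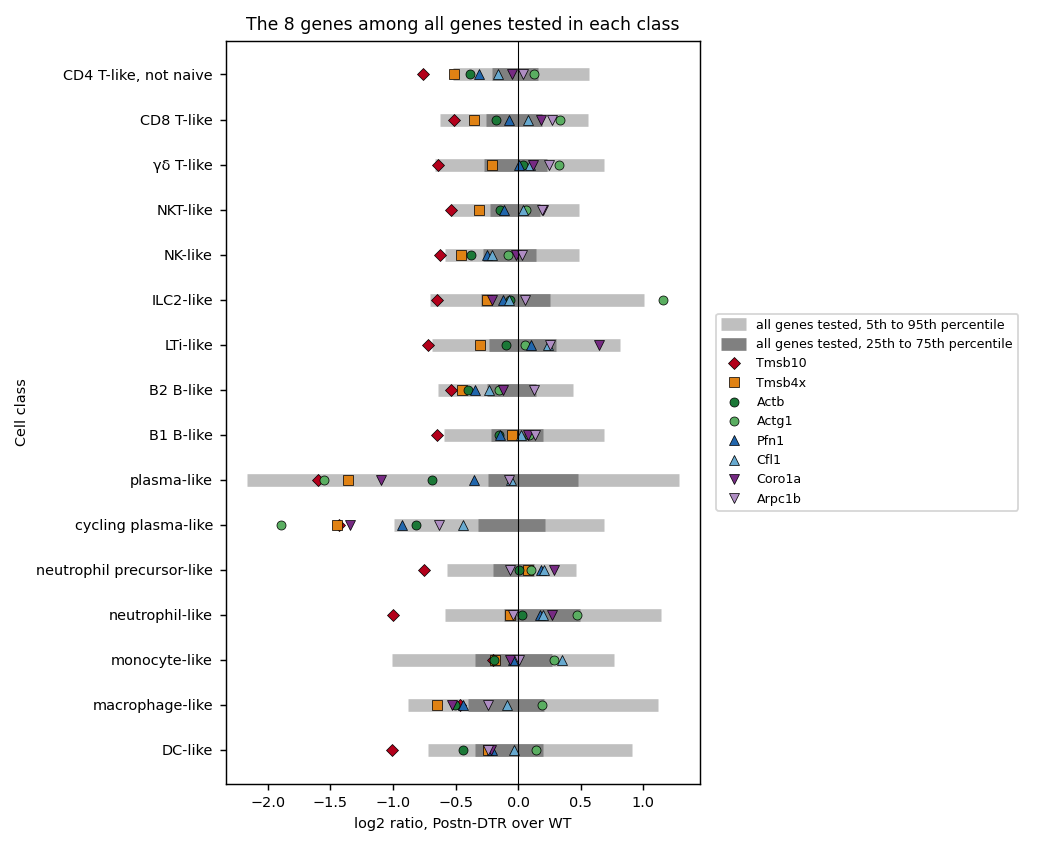
log2 ratio, Postn-DTR over WT (x axis), of the 8 genes as symbols over the range of all genes tested in each class (grey bars, 5th to 95th and 25th to 75th percentile). Tmsb10 is the lowest of the 8 in 14 classes, and the other 7 mostly lie within the grey bars outside the plasma classes.

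In B2 B-like cells and CD4 T-like cells that were not naive, the difference was spread over the cells rather than carried by a few. Among B2 B-like cells the 25th, 50th and 75th percentiles of Tmsb10 per cell were 40.2, 51.2 and 63.9 in WT and 24.2, 33.5 and 47.2 in Postn-DTR. For CD4 T-like cells that were not naive they were 58.3, 80.0 and 105.2 against 30.8, 45.5 and 66.4. A Tmsb10 UMI was found in 99.9% of WT and 98.8% of Postn-DTR B2 B-like cells, a share to which free RNA can add and for which no background was measured. With each cell thinned to 1000 UMIs, 47.5% (115 of 242) of WT and 29.7% (215 of 725) of Postn-DTR neutrophil-like cells had a Tmsb10 UMI, with binomial (Clopper-Pearson) intervals of 41.1 to 54.0% and 26.4 to 33.1%. Before thinning these shares were 82.8% and 50.3%. In plasma-like cells the thinned shares were 35.2% in WT and 15.4% in Postn-DTR. For macrophage-like cells they were 48.3% (39.0 to 57.7%) and 37.8% (32.1 to 43.8%), with intervals that overlapped.

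**Figure D4:**
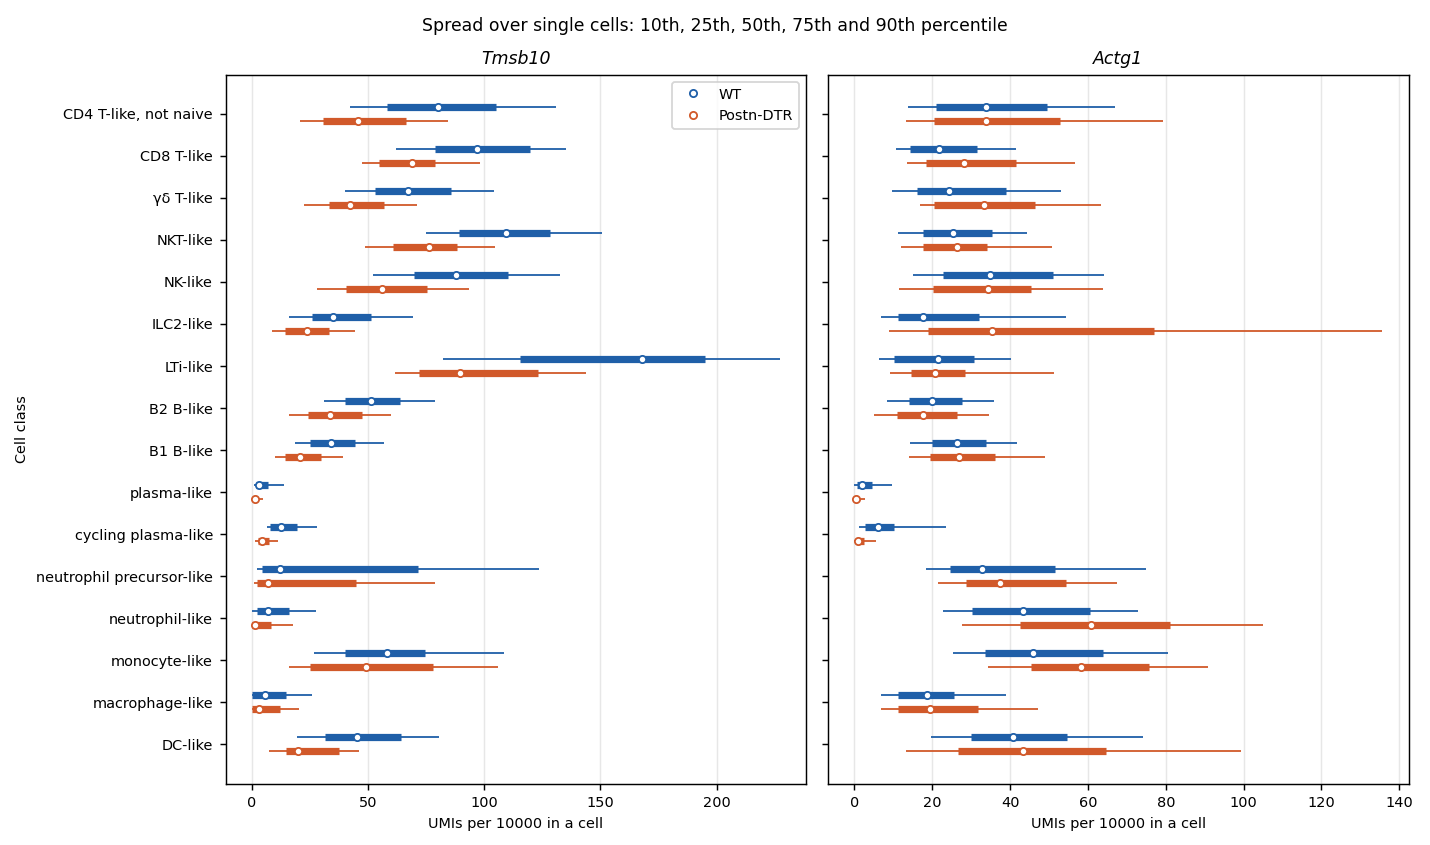
Tmsb10 (left) and Actg1 (right) in single cells (x axis, UMIs per 10000 in a cell) by class and library, with thin lines from the 10th to the 90th percentile, thick lines from the 25th to the 75th and circles at the median. The Tmsb10 medians are lower in Postn-DTR in every class, and the Actg1 distribution of Postn-DTR ILC2-like cells reaches 135.6 at the 90th percentile against 54.5 in WT.

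Neutrophil-like, plasma-like and CD8 T-like cells each comprised more than 1 cluster, with cells of both libraries in every cluster but in unlike shares. Of the neutrophil-like cells, 186 of 244 in WT were in cluster 12 and 474 of 746 in Postn-DTR in cluster 7, with medians over both libraries of 7012.5 and 2855 UMIs per cell. Tmsb10 went from 12.5 to 9.89 within cluster 12 (-0.34) and from 7.54 to 3.24 within cluster 7 (-1.22). CD8 T-like cells were split over 2 clusters, 218 and 154 cells in WT against 33 and 16 in Postn-DTR, and the Tmsb10 log2 ratio within the larger was -0.36, short of the fold. Plasma-like cells were split over 4 clusters with log2 ratios of -1.24, -1.29, -1.45 and -2.54, the last in a cluster with 62 cells from WT and 169 from Postn-DTR.

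Tmsb4x, the other beta-thymosin, was mostly lower as well, by a smaller amount. It was lower in 15 of 16 classes but past the fold in 4, with a median log2 ratio of -0.31. The 4 were cycling plasma-like (23.1 in WT, 8.46 in Postn-DTR, -1.45), plasma-like (12.1 and 4.73, -1.36), macrophage-like (108.3 and 69.2, -0.65) and CD4 T-like cells that were not naive (107.3 and 75.3, -0.51). In B2 B-like cells Tmsb4x was 81.8 in WT and 59.9 in Postn-DTR (-0.45). In neutrophil precursor-like cells it was 85.8 and 90.7 (0.08), and in B1 B-like cells 80.4 and 77.5 (-0.05).

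The ratio of Tmsb10 to Tmsb4x levels within a library cancels any scaling common to both genes; it is a ratio of UMIs, not corrected for length. This ratio was lower in Postn-DTR in 14 of 16 classes, with a median log2 change of -0.24, a description only because Tmsb10 was picked for its drop. In B1 B-like cells it went from 0.452 in WT to 0.299 in Postn-DTR, in neutrophil precursor-like cells from 0.471 to 0.264, in neutrophil-like cells from 0.0705 to 0.0368 and in DC-like cells from 0.273 to 0.160. B2 B-like cells (0.654 and 0.616) and monocyte-like cells (0.505 and 0.4995) changed little, and the ratio was higher in Postn-DTR in macrophage-like (0.0998 and 0.113) and cycling plasma-like cells (0.649 and 0.659).

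**Figure D5:**
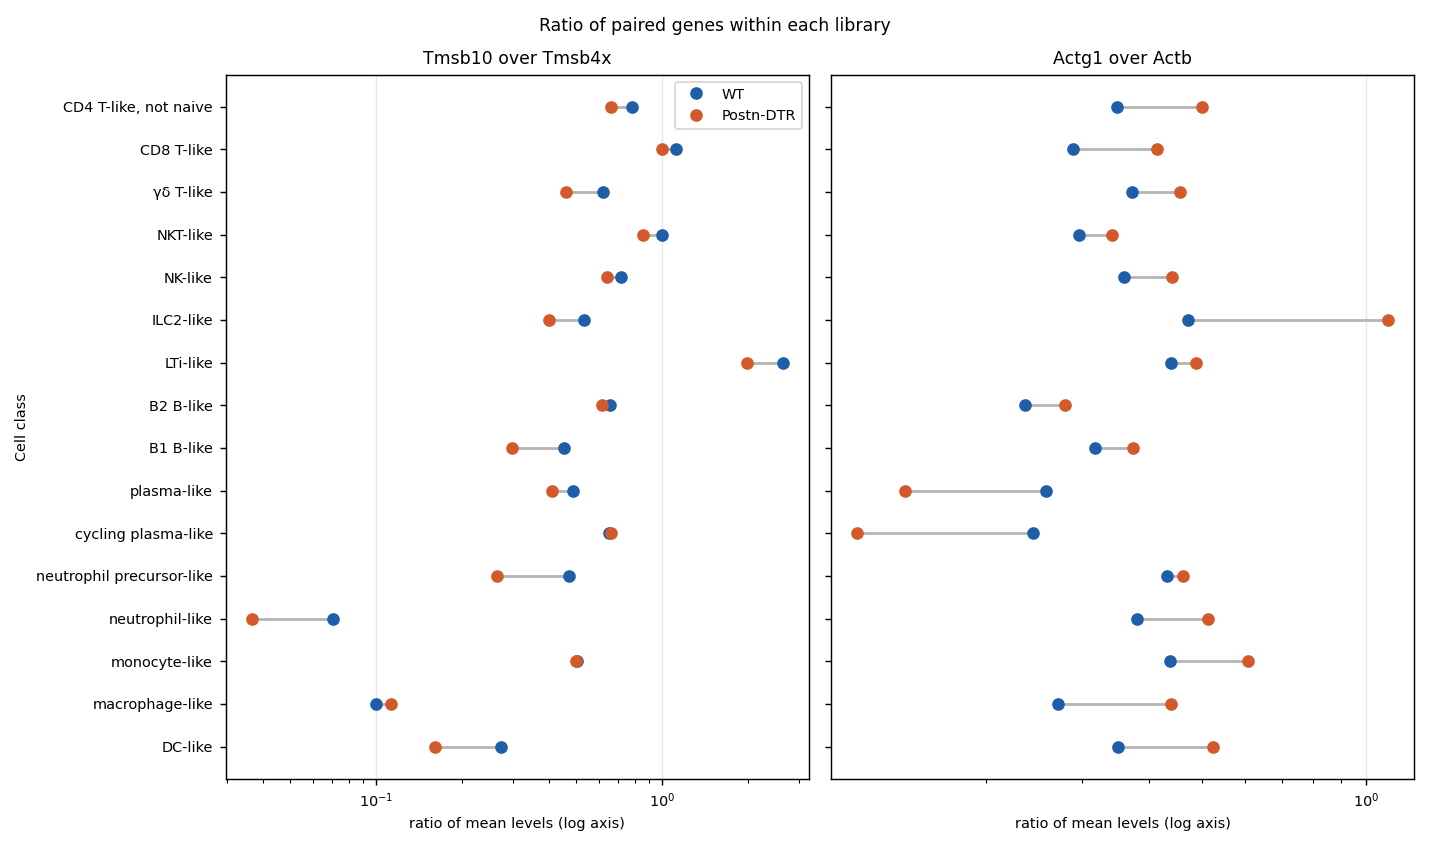
Ratio of mean levels (x axis, log scale) of Tmsb10 over Tmsb4x (left) and of Actg1 over Actb (right) in the 16 compared classes, WT in blue and Postn-DTR in orange. The thymosin ratio was lower in Postn-DTR in 14 classes, while the actin ratio was higher in 14.

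The actins, Actb for cytoplasmic beta-actin and Actg1 for cytoplasmic gamma-actin, did not move together. Actb was lower in 13 of 16 classes, past the fold in 3, with a median log2 ratio of -0.18. Its level was 91.2 in WT and 68.9 in Postn-DTR B2 B-like cells (-0.40), 108.9 and 83.2 in CD4 T-like cells that were not naive (-0.39), and 77.5 and 54.7 in macrophage-like cells (-0.50). In neutrophil-like cells it was 123.4 and 126.2 (0.03).

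Actg1 was higher in Postn-DTR in 12 of 16 classes, with a median log2 ratio of 0.12; it was past the fold upwards in 1 class and downwards in 2. The widest upward difference was in ILC2-like cells, with levels of 24.99 in WT and 55.8 in Postn-DTR. The log2 ratio of Actg1 there was 1.16 (1.01 to 1.16 on summed UMIs). Of all genes tested in this class, 13.9% were at 0.5 or more. Single ILC2-like cells overlapped, with medians of 17.6 in WT and 35.4 in Postn-DTR and 25th to 75th percentiles of 11.1 to 31.9 and 18.9 to 77.1. Actb in the same cells was 53.2 in WT and 50.8 in Postn-DTR (-0.06), so the Actg1 to Actb ratio went from 0.470 to 1.10. In neutrophil-like cells Actg1 was 46.8 and 64.8 (0.47). In plasma-like cells it was 3.58 in WT and 1.22 in Postn-DTR (-1.55), and in cycling plasma-like cells 9.81 and 2.65 (-1.89). Over all classes the Actg1 to Actb ratio was higher in Postn-DTR in 14 of 16, with a median log2 change of 0.29, and the 2 exceptions were the plasma classes.

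Pfn1, which encodes profilin 1, was lower in 12 of 16 classes but past the fold in 1, cycling plasma-like cells (11.6 in WT, 6.07 in Postn-DTR, -0.93). It was 33.4 and 26.3 in B2 B-like cells (-0.35) and 39.6 and 31.9 in CD4 T-like cells that were not naive (-0.31). Cfl1, which encodes cofilin 1, was lower in 8 classes and higher in 8, and passed the fold in none; its values ran from -0.44 in cycling plasma-like to 0.35 in monocyte-like cells (15.7 in WT, 19.9 in Postn-DTR). For B2 B-like cells the Cfl1 levels were 15.5 and 13.2 (-0.24).

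Coro1a was lower in 9 classes and higher in 7, with a median log2 ratio of -0.03. It was past the fold upwards in LTi-like cells, at 5.03 in WT against 7.86 in Postn-DTR (0.64, with 0.31 to 0.94 on summed UMIs from 152 and 191 UMIs), where 13.8% of all genes tested were at 0.5 or more. It was past the fold downwards in plasma-like (1.41 and 0.659, -1.09), cycling plasma-like (4.40 and 1.73, -1.34) and macrophage-like cells (2.14 and 1.49, -0.52); in macrophage-like cells the interval on summed UMIs was -0.36 to 0.19 and held 0. Arpc1b was higher in 10 classes and lower in 6, with a median log2 ratio of 0.03, and passed the fold in cycling plasma-like cells alone (2.42 in WT, 1.56 in Postn-DTR, -0.63).

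For the 7 genes other than Tmsb10, 14 of 112 values (12.5%) were at -0.5 or less, against 10.6% of all genes tested. Of these 14, 10 were in the plasma classes, and without them 4 of 98 values (4.08%) remained. The 10.6% includes the plasma classes and is not a like share for these 98 values. Class by class outside them, the share of all genes ran from 5.96% in CD4 T-like cells that were not naive to 18.1% in macrophage-like cells. In plasma-like cells all 7 of these other genes were lower and 4 past the fold. There 38.9% of all genes tested were below 0 and 15.9% at -0.5 or less. In cycling plasma-like cells all 7 were lower and 6 past the fold, beside 55.0% and 14.9% of all genes. In γδ T-like and neutrophil precursor-like cells 1 of the 7 other genes was lower. In B2 B-like, NK-like, macrophage-like and DC-like cells 6 of the 7 were lower, with medians of -0.24, -0.21, -0.44 and -0.22 beside medians over all genes tested of -0.05, -0.07, -0.11 and -0.07; in these classes 56.0, 57.1, 60.1 and 56.1% of all genes were below 0. Within a class, the log2 ratio of Tmsb10 was below that of Pfn1, Cfl1 and Arpc1b in 16 of 16 classes. It was below that of Actb, Actg1 and Coro1a in 15, and below that of Tmsb4x in 14. Because Tmsb10 was picked for its drop, these counts are a description and support nothing.

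A wider list of actin genes was described in the same way. Of its 90 genes in the files, 8 are the genes above. The other 82 gave 684 values over the 16 classes. Of these, 66 (9.65%) were at -0.5 or less and 17 (2.49%) at 0.5 or more, against 10.6% and 9.63% of all genes tested. At -0.5 or less, 11 of the 66 reached the minimum level of 1 through WT alone, beside 641 of 2153 values of all genes. At 0.5 or more, 4 of the 17 reached it through Postn-DTR alone, beside 624 of 1960. Such values were partly set by the minimum. The list's median was below that of all genes tested in 14 of 16 classes, by little in most: the class medians ran from -0.48 in cycling plasma-like to 0.08 in neutrophil precursor-like cells, with a middle value of -0.10. Of the 47 other genes compared in at least 8 classes, 37 (78.7%) had a median below 0 and 1, Evl, had a median at -0.5 or less. Among all 1106 genes compared in at least 8 classes, 56.1% had a median below 0 and 25 a median at -0.5 or less.

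The 5 lowest of these genes were Evl, Myh9, Flna, Dock2 and Tln1. Evl, an Ena/VASP protein of filament ends, had a median log2 ratio of -0.56 over 8 classes, but in 3 of them it reached the minimum level of 1 through WT alone, so that a lower value was partly set by the minimum. In ILC2-like cells, 1 of the 3, its level was 1.55 in WT and 0.713 in Postn-DTR (117 and 43 UMIs), and in NK-like cells 2.84 and 2.39 (-0.25). Myh9, the heavy chain of non-muscle myosin IIA, had a median of -0.42 and was lower in 14 of 15 classes, 2 of them reached through WT alone. Flna, the cross-linker filamin A, had a median of -0.40, and went from 3.82 to 2.12 among CD4 T-like cells that were not naive. Dock2, an activator of Rac in leukocytes, and Tln1, talin 1 of integrin adhesions, were each lower in 14 of 14 classes, 1 of them reached through WT alone for Dock2, with medians of -0.37 and -0.36.

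The 5 highest were Hcls1, Cotl1, Fmnl1, Rac1 and Tpm4. Their medians were 0.08, 0.08, 0.12, 0.12 and 0.24. Tpm4, a tropomyosin that lies along filaments, was higher in 10 of 12 classes. Its widest difference was in ILC2-like cells (1.05 in WT against 2.27, 1.11), the class in which the log2 ratio of Actg1 was also highest. Arpc3 (0.55) and Rhog (0.60) were the other listed genes past the fold upwards in ILC2-like cells. These 2 were named after their values were seen. Of the listed genes tested in ILC2-like cells, members included, 4 of 50 (8.0%) were at 0.5 or more, against 13.9% of all genes tested there. Tpm4 in this class rested on 91 UMIs in WT and 120 in Postn-DTR.

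By group, the counts at -0.5 or less stand beside 10.6% of all genes tested. The thymosins had 18 of 32 values, 14 of them from Tmsb10, which was selected on this contrast, and the other 4 from Tmsb4x, 2 of these in plasma classes. The Arp2/3 complex had 7 of 115 (6.09%), 6 of them in cycling plasma-like cells. Profilins, cofilins and disassembly factors had 3 of 84 (3.57%), 1 of them in cycling plasma-like cells. Nucleation-promoting and elongation factors had 19 of 137 (13.9%). They were tested in 14 classes and in neither plasma class, so 10.6% is not a like share for them. Of the 19, 5 came from Evl, 3 of these in classes where Evl reached the minimum level of 1 through WT alone. Wipf1 in CD8 T-like cells did the same (1.38 in WT, 0.892 in Postn-DTR). Myosin II and tropomyosins had 9 of 90 (10.0%), and bundling and cross-linking proteins 12 of 118 (10.2%). Capping and severing proteins had 7 of 62 (11.3%), coronins 3 of 29 (10.3%) and actins 5 of 32 (15.6%). Plasma-like cells held 1 of these coronin and 2 of these actin values, and cycling plasma-like cells another 1 and 2. At 0.5 or more, with 9.63% over all genes tested, coronins had 4 of 29 values (13.8%), and each of the other groups given here had 3.33% or less. Among the coronin values, Coro2a in γδ T-like (0.935 in WT, 1.54 in Postn-DTR) and NK-like cells (0.808 and 1.21) reached the minimum level of 1 through Postn-DTR alone. A higher value was thus partly set by the minimum there.

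Genes other than the members were closest to Tmsb10 across classes. Over the 32 levels (16 classes in 2 libraries, which share 1 depth and cell handling per library) the genes with the highest Pearson correlation to Tmsb10 on log2(level + 0.1) were Psme1 (0.94), B4galnt1 (0.91), Evl (0.91), Med28 (0.91) and Acin1 (0.89). Psme1 encodes a proteasome activator subunit. Among the members the correlation was 0.71 for Pfn1, 0.69 for Cfl1, 0.57 for Tmsb4x and 0.38 for Arpc1b. Psme1 was lower in Postn-DTR in 15 of 16 classes, with a median log2 ratio of -0.27.

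Several other measures moved with the libraries, and their part in these results was not tested. Rps21, a ribosomal protein gene named by the study beside Tmsb10, was lower in 16 of 16 classes with a median of -0.67, for example 25.7 in WT and 15.2 in Postn-DTR B2 B-like cells, while the 82 ribosomal protein genes together had class medians from -0.18 to 0.33. Cd52, a surface glycoprotein gene of lymphocytes, was lower in 15 of 16 (median -0.49). Of the nuclear long non-coding RNAs, Malat1 was lower in 13 of 16 classes (median -0.54) and Neat1 higher in 15 of 15 (median 0.49). The mitochondrial share was 0.734 to 2.60% over classes in WT, against 0.760 to 2.60% in Postn-DTR, and the Postn-DTR share exceeded the WT share in 5 of 16 classes.

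The median UMIs per cell were lower in Postn-DTR in 15 of 16 classes, for example 8942.5 in WT and 3295.5 in Postn-DTR neutrophil-like cells and 4375 and 3164.5 in B2 B-like cells. UMIs of T cell receptor constant genes and Cd3e in the 9 B, plasma and myeloid classes were 0.000934 to 0.0109% of the total in WT against 0 to 0.00252% in Postn-DTR, higher in WT in each of the 9; in plasma-like cells they were 0.00299% and 0.000642%. Immunoglobulin UMIs in the 12 classes other than B and plasma cells went the other way, 0.111 to 2.18% in WT against 0.222 to 5.09% in Postn-DTR, higher in Postn-DTR in 10 of 12, with 0.434% and 5.09% in macrophage-like cells. Tmsb10 made up 0.462% of all UMIs of the WT library and 0.104% of the Postn-DTR library, which held 572 and 2051 plasma-like cells.

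Transcript length was set beside the ratios because Tmsb10 has a short transcript, 623 bases as the median of its principal transcripts, against 768 for Tmsb4x, 861 for Pfn1, 1920 for Actb and 3105 for Arpc1b. Over 4 bins of equal gene number, the middle value of the class medians was -0.08 in the shortest bin, 0.04 and -0.01 in the next 2 and -0.06 in the longest. The shortest bin lay below the longest in 8 of 16 classes.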

How the data were processed

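The deposited values are per-cell natural log values, ln(1 + UMIs scaled to 10000), made by the authors. The submitters' notes name Cell Ranger 6.0.0 and mm10; the methods name another version, and labels and methods differ on a 5′ or 3′ kit. Whole UMIs were recovered, within 0.1 UMI for at least 99.907% of values. Cells had 200 to 7500 genes and at most 25% mitochondrial UMIs.

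Clusters came from Seurat 5.3.0 (R 4.3.3, sctransform 0.4.2; 30 components, resolution 0.8) on 2713 variable genes, without receptor segments and 42 actin genes. A class name needed 3 markers 2-fold up in 10% of cells; cycling T and B classes were named from 4 cycling markers with 5 T or 4 B markers. These thresholds were set after clusters were seen. Genes tested had a mean level of at least 1 and 100 UMIs. Ratios were tested on simulated data. No doublets were removed from the reported values. Python 3.11.15 and SciPy 1.17.1 gave levels and intervals.

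Members, lists and markers were chosen with earlier results of these data known. Also named were the 5 lowest and 5 highest actin genes by median ratio (8 classes or more), the 5 genes most like Tmsb10, and Rps21, Cd52, Malat1 and Neat1. A further group of the actin list is not reported here.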

Additional observations from a re-analysis of the deposited data

Results flagged for a closer look

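Actg1 passed the fold in opposite directions in different classes: its log2 ratio was 1.16 in ILC2-like cells and -1.89 in cycling plasma-like cells. The difference between these classes was not tested. Coro1a did the same, with 0.64 in LTi-like cells and -1.34 in cycling plasma-like cells, also untested.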

How the results depend on the processing

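No paired analysis was possible because each genotype has 1 library, and for the same reason no replicate could be left out. The 30 log2 ratios past the fold kept their direction under each of the 10 alternatives that gave a value for them (22 had one when cells were gated on marker UMIs, 29 as medians over cells). Between 20 of 22 (gated cells) and 30 of 30 (without the 5% of cells with the highest doublet scores, an alternative chosen after seeing the data because the planned automatic threshold called doublets in 0.0231% of WT (2 cells) against 1.80% of Postn-DTR (103) and was not run) stayed past the fold, and 24 of 30 did with cells thinned to 1000 UMIs. Tmsb10 counts moved by less than 1.5 times under every alternative. Over all members, past the fold or not, the direction held in 99 of 112 values with gated cells and in at least 118 of 128 (119 of 127 as medians over cells) under the others. With gated cells 14 classes could be compared, since no gate was made for cycling plasma-like cells and too few DC-like cells passed theirs; there Tmsb4x was past the fold downwards in 2 classes, Actg1 in 1 and Pfn1 in 0, Pfn1 was lower in 7 and Coro1a in 4. Centred on the median of all genes tested, Pfn1 was past the fold downwards in 2. On summed UMIs, and with thinned cells, Cfl1 was past it in 1 class. Beyond the missing classes, the cause of these shifts was not tested. With a minimum level of 5, the shares at -0.5 or less were 7.34% of the other actin genes and 10.3% of all genes. Depth limits the small classes most, since LTi-like Coro1a rests on 152 and 191 UMIs.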
